A study of Mus musculus with 4 samples.

Results

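The transcripts of the mouse mitochondrial genome were examined in tumor-associated macrophages (TAMs) from NB9464 neuroblastomas. The genes were taken by name, as every row of the count table whose Ensembl identifier carries a symbol starting with mt-, which gave 37 of 54532 genes. They comprise 13 protein-coding genes, 2 ribosomal RNA (rRNA) genes and 22 transfer RNA (tRNA) genes, and no measured value entered the choice. NB9464 is a mouse neuroblastoma line, and its cells had been implanted under the skin of mice that were 4 to 6 weeks old. No drug or radiation is named for these mice. Whether they received transferred macrophages is not clear, given the series title below. Tumors were taken on day 40. Of the 4 libraries, M7 and M8 are labelled SYK WT (SykMC-WT) and M9 and M10 are labelled SYK KO (SykMC-KO). The SykMC-KO strain, on a C57BL/6 background, carries floxed Syk and a Cre recombinase driven by lysozyme M, which acts in macrophages but also in other myeloid cells, and Syk is the kinase it was meant to remove. TAMs were enriched with magnetic beads against CD11b and F4/80, while the same labels name bone marrow-derived macrophages as the source of the RNA and the series title names an adoptive transfer. Nothing says that the 2 libraries of a genotype came from separate mice, so p-values measure the spread between libraries, which may be technical.

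The mitochondrial genome is a small circular DNA kept in many copies per cell. It is copied into RNA as long transcripts from both strands, and these are cleaved, largely at the tRNAs that lie between the other genes, into single mRNAs, rRNAs and tRNAs. The mRNAs encode core subunits of respiratory chain complexes I, III and IV and of ATP synthase (complex V), whose other subunits are encoded in the nucleus, and the rRNAs build the mitochondrial ribosome. Most mitochondrial mRNAs carry short poly(A) tails, and these libraries were enriched for poly(A) RNA, so the amounts below are those of RNA the enrichment kept. Whether it kept each mRNA alike, mt-Nd6 included, was not tested.

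The libraries labelled SykMC-KO held more Syk than those labelled SykMC-WT. In M7 and M8 Syk had 765 and 569 counts, against 4033 and 2944 in M9 and M10, a log2 fold change of 2.80 with a standard error (SE) of 0.194 and an adjusted p of 0.000674. Lyz2, whose promoter drives lysozyme M Cre lines, was lower in both libraries labelled SykMC-KO, with 8109, 5115, 178 and 371 counts. Whether the Cre construct itself changes Lyz2 RNA was not tested, so Lyz2 is not read here as a sign against the labels. Whether the labels of the groups were exchanged was not tested, and SykMC-KO and SykMC-WT libraries below are those that carry these labels. The macrophage markers also separated the labels. The summed level of 10 macrophage markers was 1135 and 803 CPM (counts scaled to a common library total) in M7 and M8 against 9531 and 5702 CPM in M9 and M10, with 10 of 10 called higher (22.7% of all genes tested) and a median log2 fold change of 3.01. The 6 pan-leukocyte genes summed to 349 and 259 CPM in M7 and M8 against 4221 and 3025 CPM, with all 6 called higher, whereas 8 fibroblast genes fell from 12661 and 14559.6 CPM to 4034 and 4958 CPM, with 6 called lower (16.7% of all genes tested). Of the neutrophil markers 4 of 4 tested were called higher, summing to 23.7 and 37 CPM against 387 and 189 CPM, and of the T cell markers 4 of 5, summing to 5.61 and 4.35 CPM against 10.2 and 13.2 CPM. No marker of the macrophage, pan-leukocyte or fibroblast list was at 0 in any library. The neutrophil genes Ly6g and Mpo were at 0 in at least 1 library and were not tested. In M7 and M8 the T cell sums were mostly Lck (4.89 and 3.82 CPM), which was not called, and the called T cell genes had 1 to 11 counts there. M7 and M8 thus held a higher summed level of the fibroblast than of the macrophage list, and the part of these differences in the mitochondrial results was not tested. In such bulk libraries, fewer cells of a type and less RNA per cell cannot be told apart.

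Several of these genes share bases, which limits what a count can say about one gene, and the sequences involved are shown first. They are the GENCODE M21 transcripts of GRCm38 (mm10). The mt-Atp8 gene encodes a small subunit of ATP synthase (chrM:7766-7969, plus strand, 204 bases). Its last 43 bases, in capitals, are also the first 43 bases of mt-Atp6, which encodes the membrane subunit that forms part of the proton channel.
mt-Atp8: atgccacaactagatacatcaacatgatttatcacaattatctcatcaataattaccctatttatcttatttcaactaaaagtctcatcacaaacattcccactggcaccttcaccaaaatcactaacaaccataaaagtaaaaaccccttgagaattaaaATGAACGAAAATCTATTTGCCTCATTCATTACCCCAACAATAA
The mt-Nd4l gene (chrM:9877-10173, plus strand) shares its last 7 bases, in capitals, with mt-Nd4. Both encode membrane subunits of complex I.
mt-Nd4l, last 60 bases: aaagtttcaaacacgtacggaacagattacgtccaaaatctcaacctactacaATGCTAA
The mt-Nd6 gene (chrM:13552-14070), another complex I subunit, is the 1 protein-coding gene of the 13 on the minus strand. Its last 14 bases, in capitals, are antisense to the end of mt-Nd5.
mt-Nd6, last 60 bases: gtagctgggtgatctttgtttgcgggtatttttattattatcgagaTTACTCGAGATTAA
Whether reads were counted by strand is not given in the sources used here, so reads of mt-Nd6 and reads of RNA antisense to it cannot be told apart.

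The 3 mRNAs of mt-Co3, mt-Nd4 and mt-Cytb end in the genome without a whole stop codon, and it is the poly(A) tail that completes it. The other 10 are annotated with a full TAA or TAG. Of those, mt-Nd1 and mt-Nd2 each share the last 2 bases of their TAG with the next tRNA gene, mt-Ti and mt-Tw. Where the RNA is cut there was not tested. The last 30 bases of mt-Co3, mt-Nd4 and mt-Cytb, and of mt-Co1 for comparison, are given with the letters of the stop codon in capitals.
mt-Co3: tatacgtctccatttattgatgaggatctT
mt-Nd4: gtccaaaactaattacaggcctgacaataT
mt-Cytb: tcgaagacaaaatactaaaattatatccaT
mt-Co1: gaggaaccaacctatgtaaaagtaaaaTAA

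The tRNA genes gave no signal. Each of the 22 was listed at 0 counts in all 4 libraries, so no member of this class could be tested, and 3 counts, taken as the smallest detectable signal, would have been 1.28e-05% to 1.45e-05% of a library. The tRNAs are 59 to 75 bases long, shorter than the reads of 150 bases the labels name, and 14 lie on the plus strand and 8 on the minus strand. The shortest, mt-Ts2 (chrM:11613-11671), and the longest, mt-Tl1 (chrM:2676-2750), show the size of these genes.
mt-Ts2: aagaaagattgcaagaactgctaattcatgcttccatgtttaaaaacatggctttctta
mt-Tl1: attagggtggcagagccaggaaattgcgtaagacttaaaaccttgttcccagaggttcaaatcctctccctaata
A count of 0 here says that no reads were assigned to these genes, which differs from an absence of the tRNAs.

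The first comparison asked how much of each library the mitochondrial genes took. They took 2.20% of the counts in M7 and 2.34% in M8 against 6.00% in M9 and 15.9% in M10. The groups did not overlap, as was the case with SykMC-KO higher for 19.6% of all genes tested when each was taken as a percent of the library, and the 2 libraries labelled SykMC-KO lay farther from each other than M9 lay from either SykMC-WT library. The mean share was 2.27% ± 0.0984 (SD, n = 2) in SykMC-WT libraries and 10.9% ± 6.97 (SD, n = 2) in SykMC-KO libraries, a difference of 8.66 percentage points (exact two-sided permutation p = 0.333, the smallest that 2 against 2 libraries allow). Without M10 the difference was 3.74 percentage points, and without M9 it was 13.6 percentage points. Total counts ran from 20755886 to 23518045 per library, and the Wilson 95% interval of the share ran from 15.8% to 15.9% in M10 and from 2.19% to 2.20% in M7, so that counting error was small beside the difference between libraries.

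Nearly all of this was mRNA. The 13 protein-coding genes took 2.10%, 2.11%, 5.59% and 14.6% of the counts in M7, M8, M9 and M10. M7 and M8 lay close together, while M9 and M10 were both higher and far apart. The 2 rRNA genes took 0.0939% and 0.221% in M7 and M8 against 0.411% and 1.22% in M9 and M10 (exact two-sided permutation p = 0.333). The rRNA was thus higher in both SykMC-KO libraries, but the 2 SykMC-WT libraries differed more for rRNA than for mRNA. Relative to the mRNA, the rRNA came to 4.47, 10.4, 7.35 and 8.32 counts per 100 mitochondrial mRNA counts, and here the groups overlapped. The 4 listed nuclear genes that collect cytoplasmic rRNA reads or contain such sequence took 0.480%, 1.60%, 0.397% and 1.43% of the counts, higher in M8 and M10 than in M7 and M9, and so did not follow the genotype labels. The summed level of 4 nuclear-retained long noncoding RNAs, another sign of how RNA was sampled, was lower in both SykMC-KO libraries. It was 1762 and 2283 CPM in M7 and M8 against 419.6 and 1472 CPM in M9 and M10. Of the 4, 2 were called lower (16.7% of all genes tested), Neat1 at -2.40 (SE 0.325, adjusted p = 0.00313) and Meg3 at -3.71 (adjusted p = 0.0429). Malat1 (-0.86) and Kcnq1ot1 (-0.16) were not called, and Kcnq1ot1 was highest in M10, at 49.7, 76.9, 17.0 and 96.7 CPM. Their part in the mitochondrial shares was not tested.

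**Figure D1:**
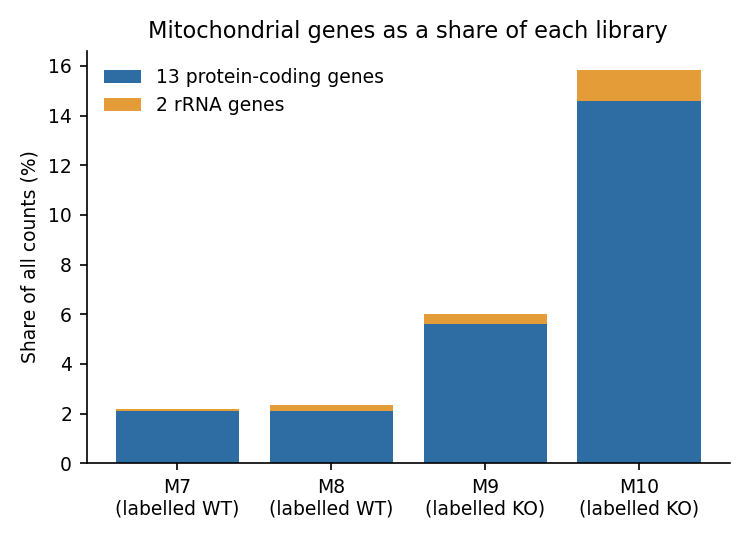
Stacked bars give the percent of all counts in each library that fell on the 13 protein-coding (blue) and 2 rRNA (orange) mitochondrial genes. M7 and M8 reach 2.20% and 2.34%, M9 reaches 6.00% and M10 reaches 15.9%, and the rRNA layer stays thin in every library.

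The weight of the mitochondrial mRNAs showed in the ranking of all genes by count. Of the 10 genes with most counts, 2 were mitochondrial in each of M7 and M8, against 4 in M9 and 8 in M10. Of the top 50 genes, 6, 7, 11 and 15 were mitochondrial, so that in M10 all 15 mRNA and rRNA genes were among them. The mt-Co1 mRNA, which encodes the catalytic core of cytochrome c oxidase (complex IV), had the most counts of the mitochondrial genes, with 119644, 116011, 374568 and 826229.

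All 15 mRNA and rRNA genes passed the filter on low counts and were compared by the edgeR quasi-likelihood test fitted over 16451 genes. All 15 rose in the libraries labelled SykMC-KO, by 2.0 to 4.28 on the log2 scale with a median of 2.88, and in none did the groups overlap. Over all genes tested, 22.7% were called higher, 16.7% were called lower and the median log2 fold change was 0.02, while in 38.0% both SykMC-KO libraries lay above both SykMC-WT libraries. Among the 153 tested genes with an average level at least that of the lowest mitochondrial gene, 65.4% were called higher with a median of 0.97. These 153 include the 15 mitochondrial genes themselves. A call of higher was thus common among abundant genes, and the mitochondrial genes lay above this median. Leaving out M10 kept all 15 calls (28.9% of all genes called higher) but lowered the median log2 fold change to 1.83, and leaving out M9 (24.8%) raised it to 3.44. A fit without a library leaves 1 library under that label, which is assumed to vary as the 2 of the other label do, and the SE of mt-Nd6 went from 0.6 to 0.191 without M10, so these calls are no measure of stability. All 15 also stayed called without M7 (12.1% of all genes called higher), without M8 (8.58%), with DESeq2 size factors (21.1%), with the DESeq2 Wald test (19.5%), with library size only (10.2%), without mitochondrial and rRNA-like genes in the scaling (21.1%), with all genes that had a count (15.7%), with at least 10 counts in every library (24.5%), at a threshold of 0.1 (27.8%) and at a log2 fold change of at least 1 (14.7%).

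**Figure D2:**
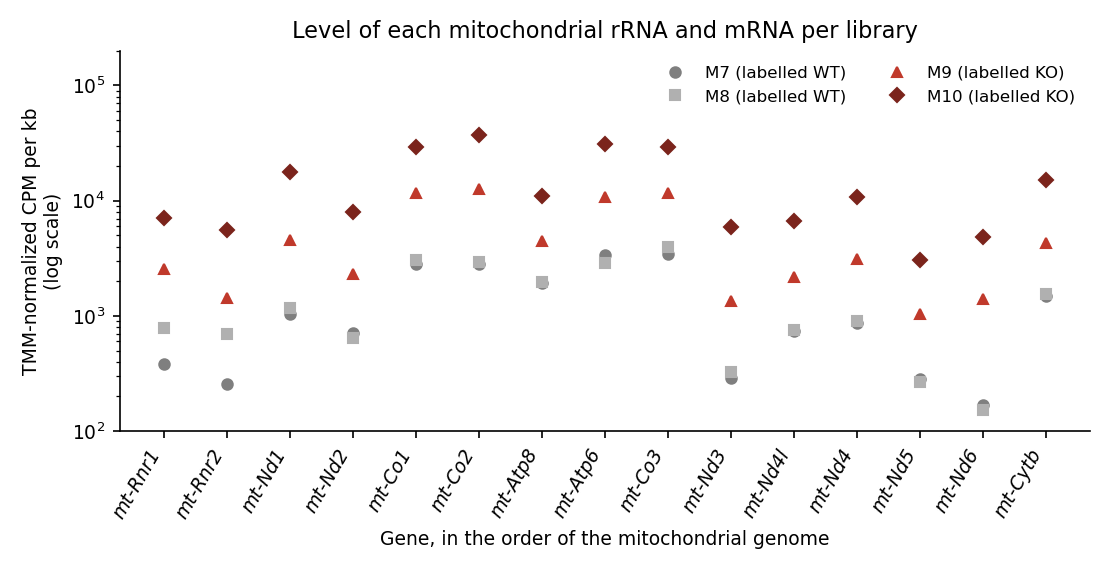
TMM-normalized CPM per kb (log axis) of each mitochondrial rRNA and mRNA, in the order of the genome, with a point for each library. Every gene is higher in M9 and M10 than in M7 and M8, and M10 is the highest library for each of the 15 genes.

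Complex I receives 7 mitochondrial subunits, and their mRNAs had log2 fold changes of 2.56 to 4.28. The mt-Nd6 mRNA had 2421, 1950, 15000 and 46212 counts, or 88.3, 79.3, 728 and 2518 CPM, in M7, M8, M9 and M10. Both SykMC-WT libraries were near each other, and the SykMC-KO libraries were both far above them. Its log2 fold change was 4.28 (SE 0.600, adjusted p = 0.00353 by edgeR with Benjamini-Hochberg adjustment), a 19.4-fold difference. The mt-Nd3 mRNA, for a membrane subunit of complex I, came next with 101, 113, 469 and 2074 CPM and a log2 fold change of 3.58 (SE 0.671, adjusted p = 0.00887). The mt-Nd1 mRNA, for a membrane subunit near the quinone site, had 986, 1122, 4337 and 16930.2 CPM and a log2 fold change of 3.33 (SE 0.654, adjusted p = 0.0102). These 3 had the highest log2 fold changes of the 15 genes. The remaining complex I mRNAs, for the antiporter-like subunits mt-Nd2, mt-Nd4 and mt-Nd5 and the small mt-Nd4l, had log2 fold changes of 2.92, 2.96, 2.88 and 2.56.

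Cytochrome b (mt-Cytb), the mitochondrial subunit of complex III, had 1700.0, 1762, 4918 and 17129.9 CPM in M7, M8, M9 and M10, with a log2 fold change of 2.67 (SE 0.596, adjusted p = 0.0154). M7 and M8 were nearly equal, while M9 and M10 lay far apart. The 3 subunits of complex IV include mt-Co2, which takes electrons from cytochrome c. It had 1923, 2009.7, 8646 and 25540.0 CPM and a log2 fold change of 3.12 (SE 0.562, adjusted p = 0.00776). The mt-Co1 mRNA had 4362, 4721, 18185 and 45021 CPM and a log2 fold change of 2.80 (SE 0.522, adjusted p = 0.00867). For mt-Co3, a core membrane subunit beside it, the values were 2687, 3079, 9098 and 23023 CPM, with a log2 fold change of 2.48 (SE 0.5, adjusted p = 0.0112). All 3 were thus higher in both SykMC-KO libraries, and mt-Co2 had the highest and mt-Co3 the lowest fold change of them.

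The ATP synthase genes included the smallest change. The mt-Atp8 gene, whose sequence and 43 shared bases are given above, had 391, 400, 903 and 2252 CPM and a log2 fold change of 2.0 (SE 0.428, adjusted p = 0.0135). M7 and M8 were nearly equal, and both SykMC-KO libraries lay above them. The neighbouring mt-Atp6 had 2294, 1945, 7331 and 21281 CPM and a log2 fold change of 2.75, an overlapping gene with a higher fold change.

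The rRNAs were mt-Rnr1, the RNA of the small subunit of the mitochondrial ribosome (chrM:70-1024, plus strand), and mt-Rnr2, that of the large subunit (chrM:1094-2675, plus strand). The mt-Rnr1 level was 362, 757, 2422 and 6758 CPM, with a log2 fold change of 3.04 (SE 0.597, adjusted p = 0.0103). The mt-Rnr2 level was 406, 1108, 2272 and 8735 CPM, with a log2 fold change of 2.86 (SE 0.752, adjusted p = 0.0260). In both, M8 lay well above M7, and the SykMC-KO libraries lay above both. Ribosomal RNA is a minor part of poly(A)-enriched libraries, so these levels are those of what the enrichment kept.

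The order of the mRNAs per length was also examined, since counts of genes of different length cannot be set side by side. In CPM per kb, mt-Co3 was the highest mRNA in M7 (3428) and M8 (3927), whereas mt-Co2 was the highest in M9 (12640.0) and M10 (37339). The lowest was mt-Nd6 in M7 (170.1) and M8 (153), but mt-Nd5 in M9 (1032) and M10 (3051). The highest level was 20.2 and 25.7 times the lowest in M7 and M8 against 12.2 times in each of M9 and M10. This narrower span in the SykMC-KO libraries involves mt-Nd6, the lowest mRNA in M7 and M8 only. The next lowest in M7 and M8 was mt-Nd5, at 286 and 269 CPM per kb, so a general narrowing among the mRNAs is not shown. In all 4 libraries the 4 highest places were held by mt-Co1, mt-Co2, mt-Co3 and mt-Atp6, and mt-Atp6 changed places with mt-Co1 and mt-Co2 between M7 and M8, so that these neighbours in the order do not differ beyond the spread of the libraries.

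The second comparison asked whether the make-up of the mitochondrial mRNA differed, as the percent of the 13 mRNAs' summed counts that each took, a measure that does not depend on how the libraries are scaled to each other. The share of 4 mRNAs was higher in both SykMC-KO libraries, that of 4 was lower in both, and that of 5 overlapped. With the nuclear copies described below added to their genes, 5 shares, now with that of mt-Atp6, were lower and 4 overlapped. Over all genes tested, the count per mitochondrial mRNA count was higher in both SykMC-KO libraries for 1.56% and lower in both for 88.9%. The exact two-sided permutation p of each of these 8 shares was 0.333, the smallest possible. This exact test cannot reach 0.05 with 2 libraries per genotype, and the shares are given as values.

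The share of mt-Nd6 was 0.513% and 0.444% in M7 and M8 against 1.14% and 1.35% in M9 and M10, 2.6 times as high on average in the SykMC-KO libraries. The gap between the groups was several times the spread within them. Against mt-Cytb, which lies close to it on the other strand, mt-Nd6 had 0.0519 and 0.0450 counts per count in M7 and M8 and 0.148 and 0.147 in M9 and M10. Against mt-Nd5, which overlaps its end, the ratios were 0.169, 0.162, 0.387 and 0.453. Both ratios thus separated the labels, and M9 and M10 were alike for the first although their mitochondrial shares of the library were far apart.

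The shares of mt-Nd3, mt-Nd1 and mt-Co2 were also higher in both SykMC-KO libraries. The mt-Nd3 share was 0.585%, 0.631%, 0.735% and 1.11%, the mt-Nd1 share was 5.73%, 6.28%, 6.79% and 9.09%, and the mt-Co2 share was 11.2%, 11.3%, 13.5% and 13.7% in M7, M8, M9 and M10. For mt-Nd3 and mt-Nd1, M9 lay nearer to M8 than to M10, whereas mt-Co2 was alike in M9 and M10. For mt-Nd3 this depended on the nuclear copies. With them added its share was 0.745%, 0.699%, 1.12% and 1.42%, and M9 lay nearer to M10. Of the lower shares, that of mt-Atp8 was 2.27%, 2.24%, 1.41% and 1.21%, that of mt-Nd4l was 1.29%, 1.26%, 1.02% and 1.06%, and that of mt-Co3 was 15.6%, 17.2%, 14.3% and 12.4%. The fourth was mt-Cytb, with 9.88%, 9.87%, 7.70% and 9.20%. The 2 shortest protein-coding genes, mt-Atp8 and mt-Nd4l, are each the first of a pair of overlapping genes. The ratio of counts to the second gene of the pair was lower in both SykMC-KO libraries. There were 0.170, 0.206, 0.123 and 0.106 mt-Atp8 counts per mt-Atp6 count, and 0.186, 0.182, 0.152 and 0.135 mt-Nd4l counts per mt-Nd4 count. No tRNA gene lies between the genes of either pair, and whether their counts came from a shared RNA was not tested. How the authors' counting divided reads over the shared bases was not tested either, so these ratios do not show separate RNAs changing apart.

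The 5 shares that overlapped between the labels were those of mt-Nd2, mt-Co1, mt-Atp6, mt-Nd4 and mt-Nd5. The share of mt-Atp6 was 13.3%, 10.9%, 11.5% and 11.4%, with M8 lowest, but with the counts of nuclear copies added it was 14.3%, 13.8%, 11.9% and 11.9%, lower in both SykMC-KO libraries, and the difference went from -0.659 to -2.21 percentage points. The share of mt-Co1, the largest in every library, was 25.4%, 26.4%, 28.5% and 24.2%, with M10 lowest and M9 highest. By complex, the 7 complex I mRNAs took 22.4%, 22.1%, 23.1% and 27.9% and the 3 complex IV mRNAs took 52.2%, 54.9%, 56.3% and 50.3%. The complex IV mRNAs were thus the larger part in every library, and M10 had the highest complex I and the lowest complex IV share.

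**Figure D3:**
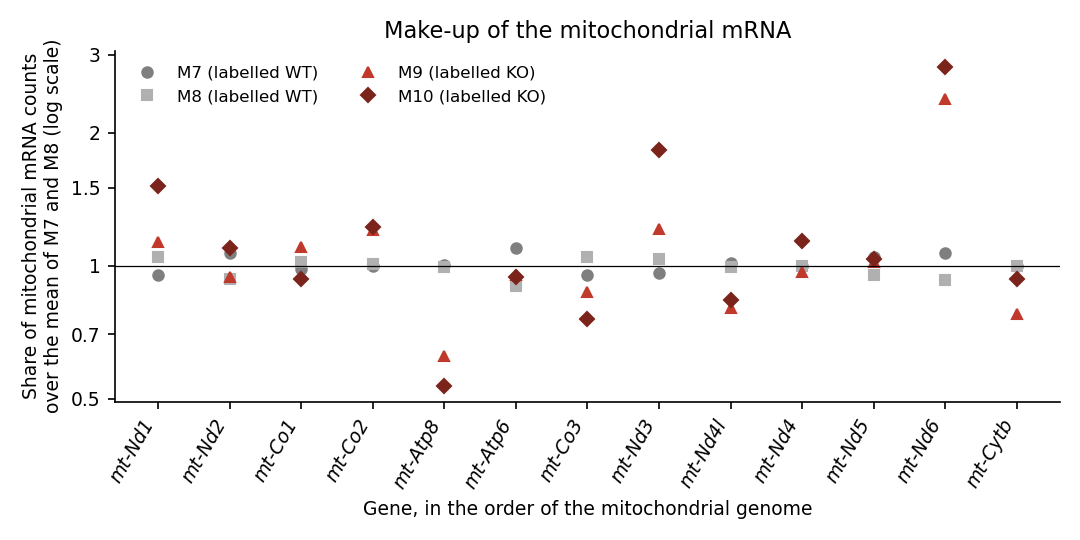
Each mRNA's share of the mitochondrial mRNA counts in each library, divided by the mean of M7 and M8 (log axis, line at 1). The points of mt-Nd6 in M9 and M10 lie above all others and those of mt-Atp8 lie lowest, while mt-Nd2, mt-Co1, mt-Atp6, mt-Nd4 and mt-Nd5 overlap between the labels.

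The calls rested on how the libraries were scaled. The markers above differed between the labels by about as much as the mitochondrial genes did, so the comparison was repeated with each library scaled to the 10 macrophage markers. Then 1 of the 15 genes was called higher, against 0.766% of all genes tested, and the median of the 15 was 0.24 while that of all genes was -2.78. The called gene was mt-Nd6, with a log2 fold change of 1.66 (SE 0.562, adjusted p = 0.00414). Of the other 14, 11 were positive and 3 were negative, and none passed the test. Scaled to the 6 pan-leukocyte genes, 0 of the 15 were called higher by edgeR (also 0 at an unadjusted p under 0.05), against 0.334% of all genes tested, and 3 were called lower against 92.8%. The 3 were mt-Atp8 at -1.53 (adjusted p = 0.00204), mt-Co3 at -1.05 (adjusted p = 0.0417) and mt-Nd4l at -0.95 (adjusted p = 0.0461), and mt-Nd6 was at 0.79 (adjusted p = 0.0937). The median of the mitochondrial genes lay above that of all genes by 3.01 with the macrophage markers, 2.98 with the pan-leukocyte genes and 2.86 with the TMM scaling. A scaling moves all genes by nearly the same amount, so this distance was nearly fixed in advance and is no sign of stability. The rise of the 15 genes was one relative to most other RNA in the library. Except for mt-Nd6, it was not one relative to macrophage marker RNA that passed the test.

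**Figure D4:**
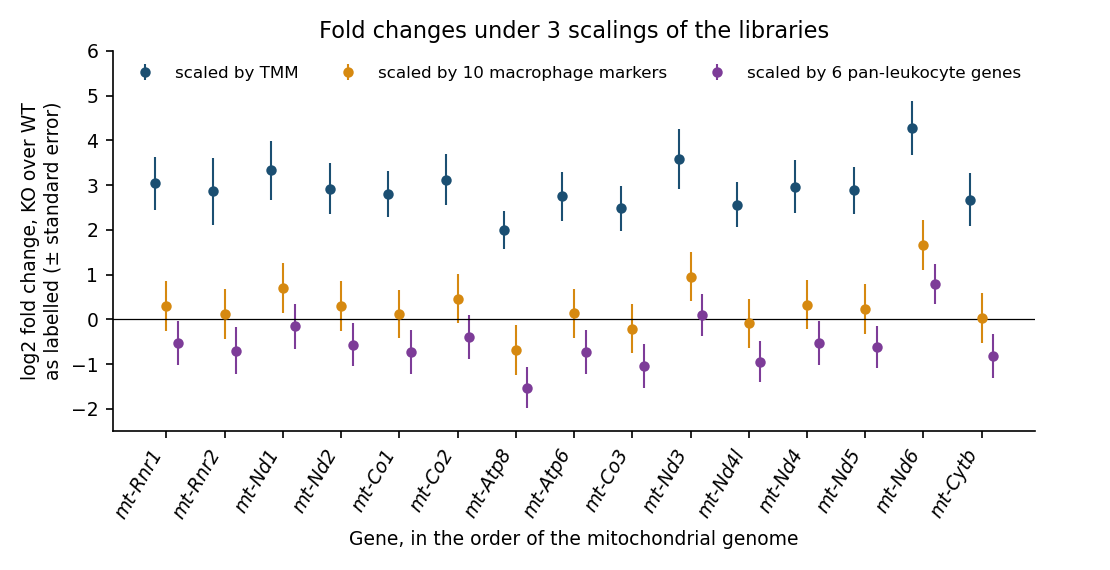
The log2 fold change of each mitochondrial rRNA and mRNA, SykMC-KO over SykMC-WT libraries as labelled, under 3 scalings of the libraries. Points are estimates and bars are ± 1 SE. With TMM all 15 lie between 2.0 and 4.28, with the macrophage markers 12 lie above 0 and mt-Nd6 is highest at 1.66, and with the pan-leukocyte genes 13 lie below 0.

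Macrophage marker RNA and mitochondrial RNA did not rank the SykMC-KO libraries alike. The summed macrophage markers were higher in M9 (9531 CPM) than in M10 (5702 CPM), whereas each of the 15 mitochondrial genes was higher in M10. Of the 7 genes of dissociation stress and heat shock, 3 were called higher (22.7% of all genes tested) with a median of 0.52. The heat shock gene Hspa1a had 35.8, 23.0, 478 and 296 CPM in M7, M8, M9 and M10, with a log2 fold change of 3.72 (adjusted p = 0.00107), and Hspa1b was at 2.99 (adjusted p = 0.000834), changes within the range of the mitochondrial genes but, like the macrophage markers, higher in M9 than in M10. Fos, Jun and Egr1 were not called and made up most of the list's summed level of 3571, 2854, 3658 and 3667 CPM. The part of heat shock or stress in the mitochondrial result was not tested. The 6 skeletal muscle markers summed to at most 6.14 CPM and the 5 adipocyte markers to at most 1.79 CPM in any library, and both sums were lower in M9 and M10 than in M7 and M8. Of those, Myh4 was at 0 in all 4 libraries and Mb, Adipoq, Cidec, Lep and Ucp1 were at 0 in at least 1. Ucp1, the uncoupling protein of brown fat, went against its list, with 0 counts in M7 and M8, 6 in M9 and 4 in M10.

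Copies of mitochondrial DNA lie in the nuclear genome, and their reads cannot be separated from mitochondrial reads where the sequences match. A search of the annotated transcripts found 12 copies with at least 90% identity over at least 50% of a mitochondrial mRNA or rRNA, of which 8 had a count and 3 had at least 100 counts in a library. These 3 are unprocessed pseudogenes on the minus strand of chromosome 1 (GRCm38). They are Gm10925 (chr1:24613974-24614651), 100% identical to mt-Atp6 over 99.6% of that gene, Gm28438 (chr1:24612775-24613119), 99.7% identical to mt-Nd3, and Gm28661 (chr1:24614885-24615565), 100% identical to mt-Co2. The 12 copies together held 1.42%, 4.16%, 0.854% and 0.778% as many counts as the mitochondrial mRNAs and rRNAs in M7, M8, M9 and M10, highest in M8. Gm10925 had 5772, 15674, 6876 and 17858 counts, which was 24.7% of the counts of it and mt-Atp6 together in M8 and 4.36% to 8.40% in the other libraries. Gm28438 had 807, 438, 5172 and 10924 counts, or 22.6%, 13.7%, 34.9% and 22.3% of the counts of it and mt-Nd3 together. Gm28661 had 405 and 4044 counts in M7 and M8 and 0 in M9 and M10. The division of reads between gene and copy thus varied between libraries of the same label. Adding each copy to its gene changed the log2 fold change of mt-Atp6 from 2.75 to 2.56, that of mt-Nd3 from 3.58 to 3.70 and that of mt-Co2 from 3.12 to 3.06, and all 15 genes stayed called.

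Nuclear genes of mitochondrial gene expression, respiratory chain subunits, biogenesis and mitophagy were then read from the same fit, from 6 lists of 98 genes in all, of which 97 passed the filter. Of these, 32 were called higher and 7 lower, beside 22.7% and 16.7% of all genes tested. The counts leaned on single libraries, with 19 higher and 3 lower without M7, 5 and 1 without M8, 33 and 16 without M9, and 36 and 12 without M10, where 12.1%, 8.58%, 24.8% and 28.9% of all genes were called higher and 7.09%, 4.69%, 25.8% and 27.4% lower. Most of the higher ones were nuclear-encoded subunits of complexes I, III, IV and V, with 22 of 26 called higher, none lower and a median log2 fold change of 0.95 beside 0.02 for all genes tested. Those with the lowest adjusted p were Cox5a, a subunit of complex IV, at 1.81 (SE 0.208, adjusted p = 0.00198), Ndufv2, an iron-sulfur subunit of complex I, at 1.30 (SE 0.171, adjusted p = 0.00289), and Atp5d, a subunit of the ATP synthase rotor, at 1.23 (SE 0.185, adjusted p = 0.00434). Among those not called were Ndufs1 (0.36), Ndufv1 (-0.09) and Atp5b (0.27), which were chosen for naming after their values were seen. All 26 had a smaller log2 fold change than the lowest of the mitochondrial mRNAs. The calls of these subunits rested on the scaling. With library size only, 4 of the 26 were called higher and 1 lower (10.2% and 32.9% of all genes tested), with a median of 0.42. Scaled to the macrophage markers, 0 were called higher and 25 lower (0.766% and 87.0%).

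Because the mitochondrial subunits had larger fold changes than the nuclear ones, the ratio of the 2 differed between the labels. For complex I there were 8.54, 9.04, 24.5 and 84.0 mitochondrial counts per count of the 7 listed nuclear subunits in M7, M8, M9 and M10, 6.18 times as many on average in the SykMC-KO libraries. For complex III the ratios were 5.51, 6.36, 9.57 and 37.6, for complex IV 10.3, 13.4, 19.7 and 61.9, and for complex V 1.80, 1.86, 3.64 and 10.6. In each complex the groups did not overlap and M10 stood far above M9 (exact two-sided permutation p = 0.333 for each of the 4 ratios, the smallest possible). The count per mitochondrial mRNA count was lower in both SykMC-KO libraries for 88.9% of all genes tested, so such a separation is not particular to these subunits. These are ratios of counts without length, so they compare libraries and not subunits.

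**Figure D5:**
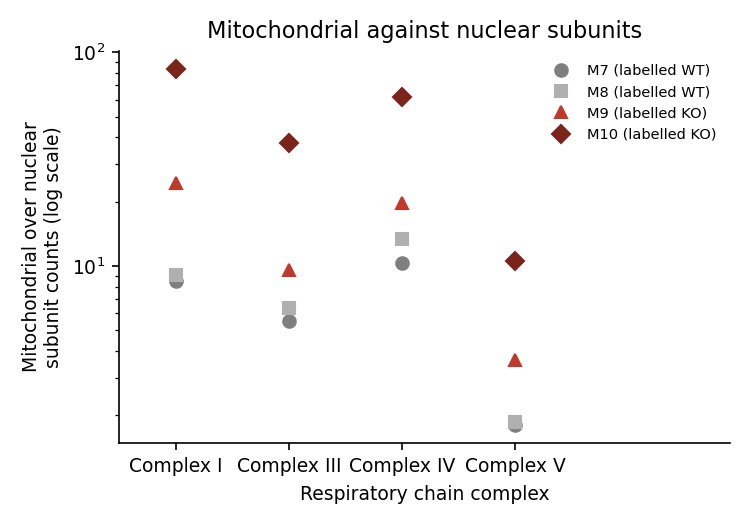
Summed counts of the mitochondrial subunits of each respiratory chain complex over those of its listed nuclear subunits (log axis), with a point for each library. In every complex M10 is highest and M9 is next, and for complex I the ratio runs from 8.54 in M7 to 84.0 in M10.

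Few genes of the machinery that copies and transcribes mitochondrial DNA were called. Of 16 genes, 1 was called higher and 2 lower, with a median of 0.02. Mgme1, a nuclease of mitochondrial DNA maintenance, was higher at 0.72 (SE 0.205, adjusted p = 0.0340), while the DNA polymerase subunits Polg at -0.94 (SE 0.149, adjusted p = 0.00511) and Polg2 at -0.74 (SE 0.231, adjusted p = 0.0456) were lower. Of the 20 genes of mitochondrial RNA processing and stability, Rexo2, which degrades short RNA remnants, was called higher at 0.52 (adjusted p = 0.0352) and Fastk was called lower at -0.74 (adjusted p = 0.0296), with a list median of 0.35. These lists thus held calls in both directions each below the share over all genes.

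The mitochondrial aminoacyl-tRNA synthetases charge the tRNAs that were at 0 counts. Of 19 listed, 3 were called higher and 4 lower, with a median of 0.04, beside 22.7% and 16.7% of all genes tested. Among the higher ones were Kars (0.65, adjusted p = 0.0330) and Fars2 (1.02, adjusted p = 0.0427), which charge the lysine and phenylalanine tRNAs, and among the lower ones were Vars2 (-1.38, adjusted p = 0.00365), Mars2 (-1.19, adjusted p = 0.00619) and Aars2 (-0.70, adjusted p = 0.0264), for valine, methionine and alanine. Of the 7 tested regulators of mitochondrial biogenesis, 3 were called higher and none lower, with a median of 0.55. They were Myc (1.52, adjusted p = 0.00413), Esrra, an orphan nuclear receptor (0.65, adjusted p = 0.0199), and the transcription factor Nrf1 (0.55, adjusted p = 0.0490). Ppargc1a, a transcriptional coactivator of mitochondrial biogenesis, had no count in at least 1 library and was not tested. Of 9 genes of mitophagy, the removal of damaged mitochondria, Fundc1 (1.06, adjusted p = 0.00507) and Phb2 (0.61, adjusted p = 0.0319) were called higher, a share near that of all genes, with a median of 0.38. Scaled to the macrophage markers, 0 of the 97 nuclear genes were called higher and 95 were called lower, where 87.0% of all genes tested were, so that their directions, too, are relative to the scaling.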

How the data were processed

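RNA-seq of 4 libraries, 2 per genotype label, was analysed. In a bcbio pipeline the authors aligned reads to mm10 with STAR and used Salmon for quantification. The submitters' processing notes name STAR 2.6.1d, Salmon 1.4.0, SAMtools 1.9, Picard 2.26 and MultiQC 1.11. Per Ensembl gene, the deposited table holds raw read counts in whole numbers, and how Salmon's estimates became whole numbers is not given in the sources used here. Salmon can divide reads between similar genes. The methods describe single reads in triplicate, the labels paired reads and 2 libraries per genotype. Total counts were 22448600, 20755886, 23518045 and 23351087 in M7, M8, M9 and M10. Replicates of a label differed beyond sampling noise.

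Symbols, positions and sequences came from GENCODE M21 (GRCm38), which matched 54495 of 54532 genes. Counts were tested in R 4.3.3 with edgeR 4.0.16 (filterByExpr, TMM factors of 1.22, 1.19, 0.876 and 0.787, glmQLFit and glmQLFTest, not robust) over 16451 genes, p-values adjusted by Benjamini-Hochberg and called under 0.05. CPM are TMM-normalized. Shares and ratios were compared by exact permutation tests. Nuclear copies were found with blastn 2.17.0. Intervals and floors reflect counting error alone, since PCR copies cannot be told from separate molecules here. Fits were checked on simulated counts. In these, all libraries had the same make-up apart from a set of changed genes, so the choice of scaling was not checked. The alternatives were DESeq2 1.42.0, other scalings, filters and thresholds, and leaving out each library. Every mRNA and rRNA gene was named, and in each nuclear list the 3 genes with the lowest adjusted p in each direction among those called, except for items not reported here. The members and lists were chosen with earlier results of these data known.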

Additional observations from a re-analysis of the deposited data

How the results depend on the processing

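The 15 mitochondrial genes stayed called higher with DESeq2's size factors or Wald test, library size only, both filters on low counts, scaling without mitochondrial and rRNA-like genes, nuclear copies added, a threshold of 0.1 and a log2 fold change of at least 1. They did so too with each library left out, but there 1 label is left with 1 library, assumed to vary like the other label's 2, so that these calls are no measure of stability. Scaling to macrophage markers left 1 called higher. Scaling to pan-leukocyte genes left 0 higher and 3 lower. Scaling to the 13 mitochondrial mRNAs, an alternative chosen after seeing the data, left 0 called (also 0 at an unadjusted p under 0.05, with 0.614% of all genes called higher). Under the macrophage scaling mt-Atp8 (-0.68), mt-Co3 (-0.21) and mt-Nd4l (-0.09) changed sign. Under the pan-leukocyte scaling mt-Rnr1 (-0.54), mt-Rnr2 (-0.70), mt-Nd1 (-0.16), mt-Nd2 (-0.57), mt-Co1 (-0.73), mt-Co2 (-0.39), mt-Atp8 (-1.53), mt-Atp6 (-0.74), mt-Co3 (-1.05), mt-Nd4l (-0.95), mt-Nd4 (-0.53), mt-Nd5 (-0.62) and mt-Cytb (-0.82) did. Under the mitochondrial mRNA scaling mt-Rnr2 (-0.05), mt-Atp8 (-0.78), mt-Atp6 (-0.08), mt-Co3 (-0.30), mt-Nd4l (-0.29) and mt-Cytb (-0.22) did, as a scaling to the group itself must give both signs, and mt-Nd6 was at 1.38 (adjusted p = 0.197 by edgeR).

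Of the 97 nuclear genes tested, 32 were called higher and 7 lower. With library size only the counts were 5 and 16 (10.2% and 32.9% of all genes tested). The macrophage scaling gave 0 and 95 (0.766% and 87.0%), and the pan-leukocyte scaling gave 0 and 97 (0.334% and 92.8%). At a log2 fold change of at least 1 they were 12 and 2 (14.7% and 11.2%). With all genes with a count kept, 11 were called lower (12.7%). Leaving out each library gave 5 to 36 called higher, with 19 without M7 and 5 without M8, and 1 to 16 called lower, with 3 without M7, 1 without M8, 16 without M9 and 12 without M10. The cause was not tested.

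Leaving out each library in turn, the difference in the share of mitochondrial mRNA counts, SykMC-KO minus SykMC-WT, ran from -0.231 to 0.394 percentage points for mt-Nd2, from -1.72 to 2.59 for mt-Co1, from -1.88 to 0.562 for mt-Atp6, from -0.237 to 0.958 for mt-Nd4 and from -0.0639 to 0.217 for mt-Nd5, and that of rRNA counts per 100 mRNA counts from -2.61 to 3.37. The other 8 shares kept their sign. With nuclear copies added, the mt-Atp6 difference was -2.21 in place of -0.659 percentage points, and its groups no longer overlapped. The difference in the mitochondrial share of the library ran from 3.74 to 13.6 percentage points. No paired analysis was possible because the labels give the groups no shared replicate numbers. With 2 libraries per genotype the exact permutation test of a share cannot reach 0.05, and a difference in make-up smaller than the spread of 2 libraries was not detectable.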
